A study of Ovis aries with 30 samples.

Results

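Of the 30 sheep whose epicardial adipose tissue (EAT) was profiled, 16 were 2-week-old lambs, and these lambs are described here. The 9 CORT lambs were born to ewes given cortisol at 0.5 mg/kg/day from gestational day 115 until birth, and the 7 Control lambs to ewes left untreated. Groups follow from the sample titles, which name the age and the maternal treatment of every animal. The lambs themselves received no cortisol. The study's methods describe males and females in both groups and twins among them, and the labels do not say which lambs shared a ewe, so the p-values treat the lambs as independent. RNA from each lamb was hybridised to a 1-colour sheep expression array, and levels are normalized intensities on the log2 scale, on which a difference of 1 is a 2-fold change. In bulk tissue, fewer cells of a type and less RNA per cell cannot be told apart.

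EAT is the fat depot that lies between the heart muscle and the visceral pericardium and shares its small vessels with the heart. In newborn mammals such fat moves from heat production, in brown adipocytes with many mitochondria, toward lipid storage in white adipocytes. Cortisol acts through the glucocorticoid and mineralocorticoid receptors, and the enzymes HSD11B1 and HSD11B2 regenerate and inactivate it inside cells. Fetal exposure to excess cortisol is studied for its lasting effects on metabolism and on the heart, and the question here is whether gene expression in the fat differs weeks after the exposure ended.

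The lambs lay on 2 slides, with 4 Control and 4 CORT lambs on slide 1 and 3 Control and 5 CORT lambs on slide 2. Median foreground intensity was between 132 and 235 per lamb array over a local background of 34 to 44, and 70.4% to 80.3% of the spots were well above background. Control lamb 6 stood apart on the first principal component, which held 23.01% of the variance, and CORT lamb 1 on the second, which held 17.1%. Myoglobin (MB), the oxygen store of muscle and the only heart muscle marker named on the array, ranged from 9.61 to 16.9 in Control and from 11.1 to 15.8 in CORT lambs. The lambs of a group thus spread widely in this muscle transcript, while the group means differed by 0.32 (SE 0.89).

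No probe passed an adjusted p of 0.05 in CORT compared to Control lambs. Among 12837 tested probes, limma called 0 at that level (0.0%), and the smallest adjusted p was 0.9995. At an unadjusted p under 0.05, the level at which the study called genes, 457 probes passed (3.56%). Of these, 211 were higher in CORT lambs (1.64%) and 246 lower (1.92%). The 3.56% lies below the share of 0.05 that such a level passes on average where no probe differs. The words called, higher and lower below refer to the unadjusted level unless stated, and the adjusted p of every called gene named below is 0.9995. For no tested probe did the values of the 2 groups stand fully apart (0.0%). The median difference over all tested probes was -0.00141 and the median size of a difference was 0.0623. Differences of at least 1 were measured for 9 probes, 2 of which were called. Without Control lamb 6 and CORT lamb 1, the arrays that stood apart, 413 probes were higher and 444 lower, and 0 passed the adjusted level. Without Control lamb 1 the higher calls fell to 103, and without Control lamb 6 the lower calls were 391. The called probes were between 0.12 and 1.47 higher, with a median of 0.24, or between 0.11 and 0.90 lower, with a median of -0.22. The median SE of the difference was 0.0938, which is larger than the median size of a difference. The 95% interval reached less than 0.5 to either side for 96.2% of the probes.

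**Figure D1:**
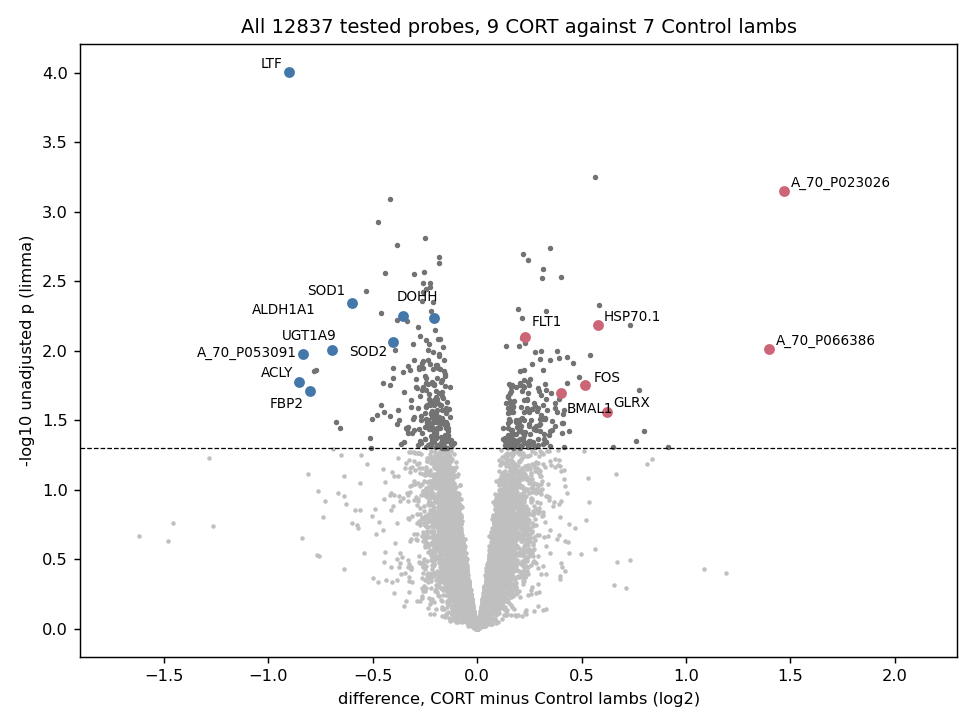
Difference between the means of 9 CORT and 7 Control lambs (log2, x axis) against -log10 of the unadjusted limma p (y axis) for the 12837 tested probes. Dark points above the dashed line are the 457 probes at an unadjusted p under 0.05, and LTF at -0.90 has the smallest p of all.

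Most of the array cannot be read by name. A gene symbol could be given to 1386 of the tested probes, for 894 genes, and 55 of these were called, 23 higher and 32 lower (3.97%). Of the 11026 tested probes that are sequence tags without a symbol, 183 were higher and 207 lower (3.54%). Among the 430 named genes with more than 1 tested probe, 25 had a called probe. All probes of a gene lay on the same side of 0 in 22 of those 25, and all were called in 9. Those 25 were chosen for a called probe, and probes of a gene can share most of their bases. Their agreement is thus not independent support. The genes described below include those that the study named for this tissue and that had a named, tested probe. The others are the named probes with the smallest p on each side, the largest called differences, and fixed lists for glucocorticoid and iron genes. Since small p-values in this same comparison chose many of them, their p-values describe the choice and are not independent support. These rules gave 44 genes and unnamed probes, 30 of them called, and 30 were called as well with the myoglobin level as a covariate. Further list members and 3 unnamed probes outside these 44 are given with their values below. Of the study's genes as listed here, few could be read. These were 3 of 6 for angiogenesis, 4 of 31 for metabolic pathways, 3 of 8 for peroxisome and oxidative stress, and 3 of 4 single genes. NOTCH3, NOTCH4, MEOX1 and GBP2, the last being the study's most raised gene in this tissue, had no named, tested probe.

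The sequences of the probes behind the main named results are shown because 1 probe often stands for a whole gene. Each is 60 bases, written 5′ to 3′ as the scanner files give it. Capitals mark the stretch that a probe shares with another probe of the same gene. The first is the only probe for LTF, the gene with the smallest p.
LTF: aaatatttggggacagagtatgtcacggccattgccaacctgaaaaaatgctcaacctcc
SOD2, A_70_P067987: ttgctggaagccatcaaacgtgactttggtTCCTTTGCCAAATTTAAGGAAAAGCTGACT
SOD2, A_70_P067986: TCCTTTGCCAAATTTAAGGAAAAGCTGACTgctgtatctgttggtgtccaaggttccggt
FLT1, A_70_P026631: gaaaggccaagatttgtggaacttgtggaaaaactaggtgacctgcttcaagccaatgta
FLT1, A_70_P026322: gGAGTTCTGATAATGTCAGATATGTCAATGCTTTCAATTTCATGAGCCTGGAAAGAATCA
FLT1, A_70_P026321: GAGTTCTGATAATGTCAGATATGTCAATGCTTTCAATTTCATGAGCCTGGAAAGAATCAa

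Lactotransferrin (LTF), an iron-binding protein of milk and of neutrophil granules, was the clearest difference. Control lambs 1 to 7 measured 8.53, 9.48, 9.24, 9.43, 8.79, 8.99 and 8.76. CORT lambs 1 to 9 measured 7.82, 8.21, 7.31, 8.10, 8.06, 8.70, 8.14, 8.54 and 8.29. Every CORT lamb lay below the Control mean and 7 of 9 below all Control lambs, so that CORT lambs 6 and 8 alone overlapped with the Control range. The means were 8.13 ± 0.40 (SD, n = 9) in CORT and 9.03 ± 0.36 (SD, n = 7) in Control lambs, a difference of -0.90 (SE 0.18, 95% interval -1.28 to -0.52) or 1.87-fold. The limma p was 9.88e-05 and the exact two-sided permutation p over all 11440 splits was 0.00035. Within slides the difference was -1.31 on slide 1 and -0.50 on slide 2, and leaving out single lambs moved it between -0.99 and -0.80.

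LTF was the only called gene of the iron list and of the neutrophil list, beside 3.56% of all tested probes. Both lists had 4 tested genes, and the other iron genes had 95% intervals that included 0. Ferritin heavy chain (FTH1), the iron store of the cell, was 0.10 higher (SE 0.07), transferrin (TF), the iron carrier of plasma, 0.07 higher (SE 0.14), and beta globin (HBB) 0.12 lower (SE 0.65). The HBB probes disagreed in sign, the second being 0.24 higher, and both followed a wide spread between lambs. Neutrophil granule genes beside LTF were on the other side of 0 over both slides, with SEs larger than their differences. BAC5, a cathelicidin, was 0.33 higher (SE 0.38), CATHL1B 0.22 higher (SE 0.30) and CATHL3 0.19 higher (SE 0.23). Their signs changed between slides 1 and 2, with BAC5 at 0.93 and -0.35, CATHL1B at 0.59 and -0.16, and CATHL3 at 0.56 and -0.22. BAC5 was well above background in 4 of 7 Control and 6 of 9 CORT lambs, CATHL1B in 3 and 4, and CATHL3 in 2 and 3. Over the 4 neutrophil markers the summed level was 9.26 to 9.93 in Control and 8.84 to 10.8 in CORT lambs. Intensities were summed before taking the log, and LTF was the brightest marker, with a Control mean of 9.033 beside 6.842 for BAC5. LTF thus weighs most in that sum. The part of neutrophils in the LTF difference was not tested.

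**Figure D2:**
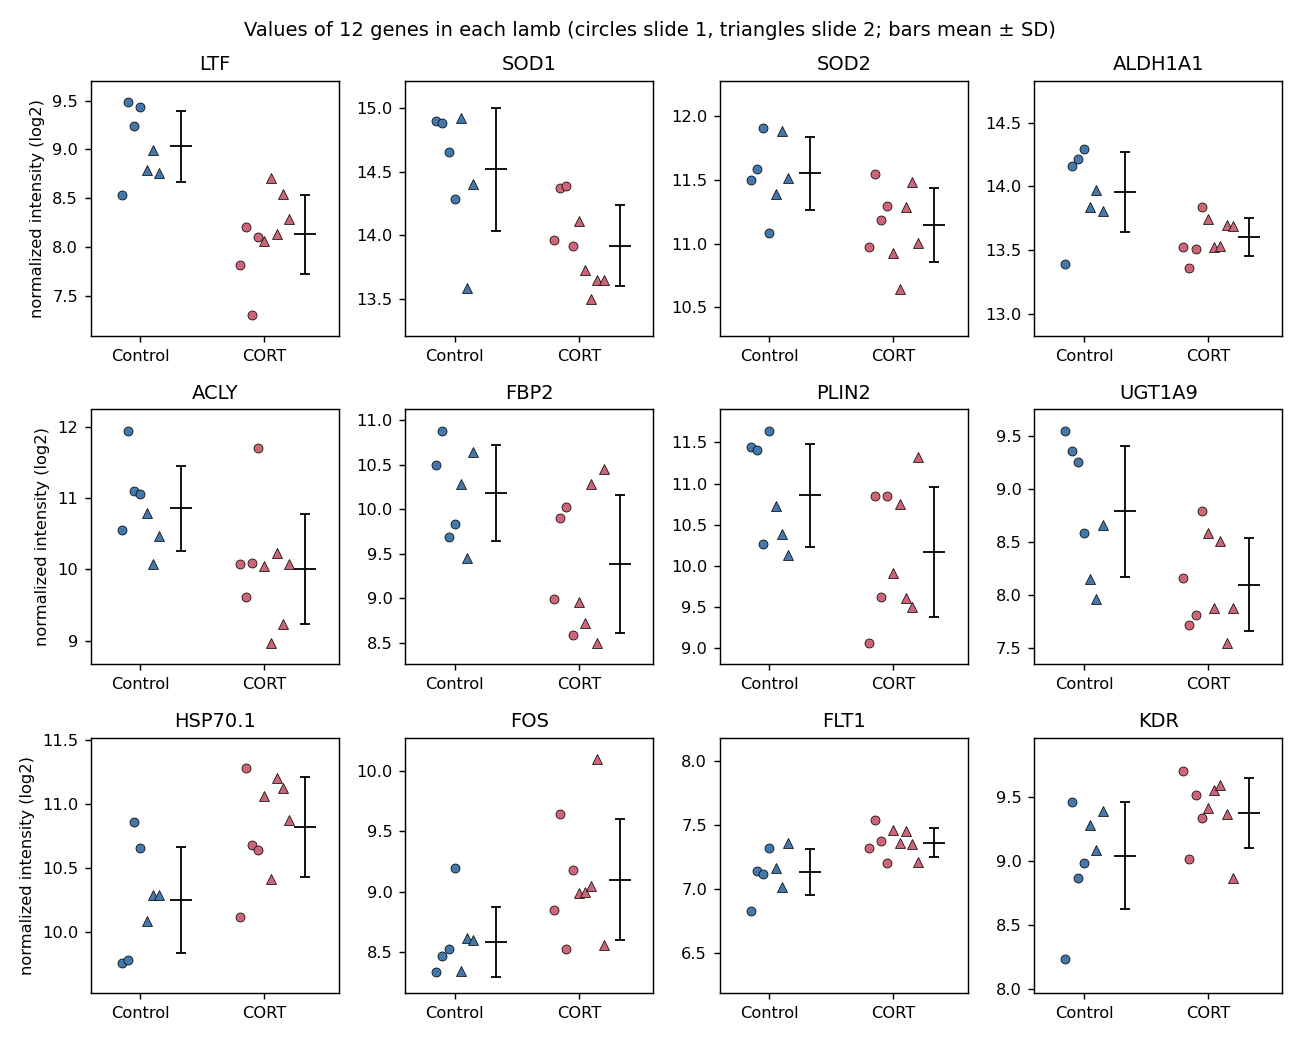
Normalized intensity (log2, y axis) of 12 genes in each of the 7 Control and 9 CORT lambs, with circles for slide 1, triangles for slide 2, and bars for mean ± SD. LTF shows 7 of 9 CORT lambs below every Control lamb, and the groups overlap in all 12 panels.

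Both superoxide dismutases, SOD1 and SOD2, were lower in CORT lambs. All 4 tested genes of the antioxidant list, which holds 21 symbols, had negative differences, under each of 6 other scalings too. Their median was -0.50, which lies between SOD1 and SOD2, beside -0.00141 over all probes. SOD1 and SOD2 were the 2 called, beside 3.56% of all tested probes. The study had named both dismutases on these lambs, so neither their place in the list nor its median is independent. Cytosolic SOD1, which turns superoxide into hydrogen peroxide, measured 13.6 at the lowest, 14.7 at the median and 14.9 at the highest in Control lambs. In CORT lambs it measured 13.5, 13.9 and 14.4. Control lamb 6 was the only low Control lamb, at 13.59, and without it the difference was -0.75. Over all lambs the difference was -0.60 (SE 0.18, 95% interval -0.99 to -0.21, exact permutation p = 0.0129), at -0.52 on slide 1 and -0.58 on slide 2.

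Mitochondrial SOD2 was measured by a pair of probes that share 30 bases, printed above. The first fell between 11.1 and 11.9 in Control and between 10.6 and 11.5 in CORT lambs, with 9 of 9 CORT lambs below the mean of the Controls. Its difference was -0.40 (SE 0.14, exact permutation p = 0.0157), and that of the second probe was -0.44 (SE 0.13, exact permutation p = 0.00525). On slides 1 and 2 the first probe differed by -0.27 and -0.53. The 2 probes thus gave close values from overlapping targets.

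Thioredoxin (TXN), which reduces oxidised proteins, and the glutathione transferase GSTA1 complete the list. The brighter TXN probe was 0.15 lower (SE 0.07, limma p = 0.0532, exact permutation p = 0.0421) and the other, with 15 bases in common, 0.26 lower (SE 0.08, exact permutation p = 0.00149). For that second probe 9 of 9 CORT lambs were below the mean of the Controls. GSTA1 differed by -0.64 (SE 0.34, 95% interval -1.36 to 0.08). Glutaredoxin (GLRX), a related thiol reductase, was on the opposite side. It was 0.62 higher in CORT lambs (SE 0.26, exact permutation p = 0.04), with 0.25 on slide 1 and 0.92 on slide 2. Its unadjusted call was lost when Control lamb 2, 4 or 7 was left out.

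No gene of the fixed mitochondrial lists was called, beside 3.56% of all tested probes. In complex I of the respiratory chain NDUFA12 differed by -0.24 (SE 0.14) and NDUFA2 by 0.06 (SE 0.12). SDHD of complex II differed by -0.16 (SE 0.09) and COX5A of complex IV by -0.19 (SE 0.17). The slides were unlike for NDUFA12, at 0.02 on slide 1 and -0.47 on slide 2, and for COX5A, at 0.21 and -0.56. Of 4 ATP synthase genes 3 were negative, with a median of -0.08, and ATP5PD was at 0.14 (SE 0.17). Beside SOD2, described above, a few genes with mitochondrial products that belong to none of these lists were called. VDAC1 is described because the study named it, and GRPEL1 and SLC25A26 for their small p, so they stand for no wider set. The voltage-dependent channel VDAC1 of the outer membrane, named by the study, was 0.29 lower (SE 0.11, exact permutation p = 0.0158), with 6 of 9 CORT lambs below all Control lambs. GRPEL1, a co-chaperone of protein import into mitochondria, was 0.26 lower (SE 0.10) with its first probe and 0.22 lower (SE 0.08) with its second. SLC25A26, the mitochondrial carrier of S-adenosylmethionine, was 0.16 lower (SE 0.06, exact permutation p = 0.00778). The citrate cycle list had no named gene on the array.

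Enzymes of lipid and glucose metabolism gave the largest differences after LTF among the called probes with a name. Of the study's list of metabolic pathway genes, ACLY, FBP2, HK1 and ALDH1A1 were matched to a named, tested probe, and TM7SF2, described with them, appears to be there under another spelling. All were called lower, which the choice of that list on these lambs fixes. ATP citrate lyase (ACLY), which makes cytosolic acetyl-CoA for fatty acid synthesis, was between 10.07 and 11.94 in Control lambs with a median of 10.79. In CORT lambs it was between 8.96 and 11.71 with a median of 10.08. CORT lamb 4 was the exception, near the highest Control lamb, and 8 of 9 CORT lambs lay below the Control mean. The difference was -0.85 (SE 0.32, 95% interval -1.53 to -0.17, exact permutation p = 0.0332), at -0.79 and -0.73 on slides 1 and 2.

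Other lipogenic genes did not move as a block. Of 9 tested, 2 were called lower, ACLY and the malic enzyme ME1, which supplies NADPH (-0.33, SE 0.15), beside 1.92% of all tested probes lower, and the median of the list was -0.09. Stearoyl-CoA desaturase (SCD) differed by -0.64 (SE 0.38) and fatty acid synthase (FASN) by -0.26 (SE 0.30). Acetyl-CoA carboxylase (ACACA) was at 0.17 and DGAT1, the last step of triglyceride synthesis, at 0.18. Perilipin 2 (PLIN2), the coat of small lipid droplets, differed by -0.69 (SE 0.33, limma p = 0.0509, exact permutation p = 0.0783). Its 2 probes share 39 bases and gave -0.69 and -0.65, with -1.09 on slide 1 and -0.19 on slide 2 for the first. PLIN2 was past the unadjusted level in 13 of 34 alternative analyses.

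Fructose-bisphosphatase 2 (FBP2), the gluconeogenic enzyme of muscle, was 0.80 lower in CORT lambs. Control lambs ranged from 9.45 to 10.9 and CORT lambs from 8.50 to 10.4. The CORT lambs fell into a lower set of 5, all under the lowest Control lamb, and 4 lambs within the Control range. The difference was -0.80 (SE 0.31, exact permutation p = 0.038), at -0.85 on slide 1 and -0.74 on slide 2. With myoglobin as a covariate it was -0.78. Hexokinase 1 (HK1), the first step of glycolysis, differed by -0.26 (SE 0.12, exact permutation p = 0.0533). It lost its unadjusted call when Control lamb 2, 3 or 6 or any 1 of CORT lambs 3, 6, 7, 8 and 9 was left out. The other 5 glycolysis genes were not called, beside 3.56% of all tested probes that were.

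Aldehyde dehydrogenase 1A1 (ALDH1A1), which makes retinoic acid, was 0.35 lower (SE 0.11, exact permutation p = 0.0115). Control lambs measured 13.39 at the lowest, 13.97 at the median and 14.29 at the highest, and CORT lambs 13.36, 13.53 and 13.83. Control lambs 1 and 7 were not above the highest CORT lamb, and 9 of 9 CORT lambs were below the mean of the Controls. UGT1A9, a conjugating enzyme, was 0.69 lower (SE 0.24) with one probe and 0.77 lower (SE 0.28) with the other. That difference lay mostly on slide 1, at -1.07 and -0.18 on slides 1 and 2 for the first probe. TM7SF2, a sterol reductase, was 0.24 lower (SE 0.09), again with -0.45 on slide 1 and -0.02 on slide 2. DOHH, which hydroxylates the deoxyhypusine of the translation factor eIF5A, differed by only -0.21 (SE 0.07), but 7 of 9 CORT lambs lay below all Control lambs, which were close together at 10.09 ± 0.04 (SD, n = 7). Its exact permutation p was 0.00367.

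**Figure D3:**
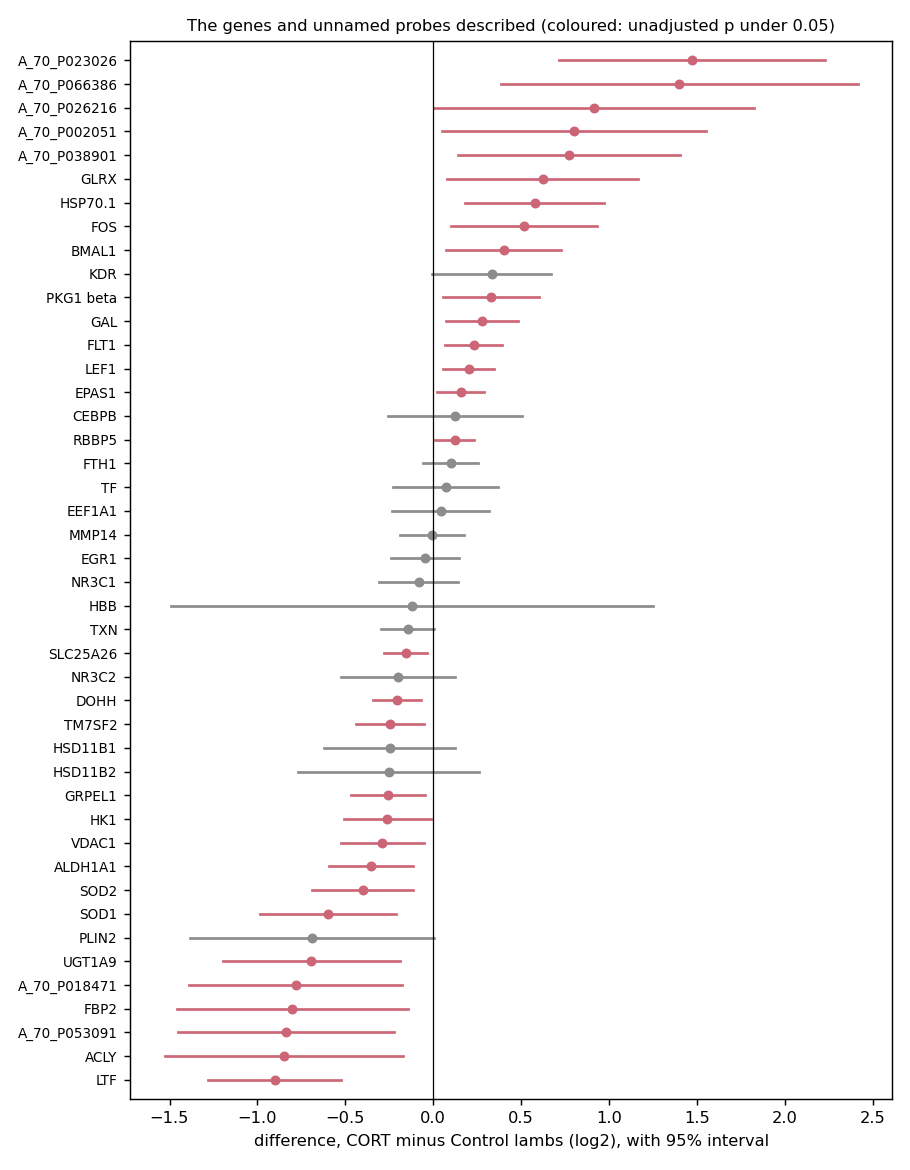
Difference between CORT and Control lambs (log2, x axis, points) with its 95% limma interval (lines) for the 44 genes and unnamed probes that the rules gave, each by its brightest probe. Coloured are the 30 at an unadjusted p under 0.05, and the named genes with the largest sizes, LTF, ACLY and FBP2, are all lower in CORT lambs.

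A few vascular genes had small positive differences. FLT1 and KDR are receptors for vascular endothelial growth factor on endothelial cells. The brightest FLT1 probe was between 6.83 and 7.36 in Control and between 7.20 and 7.54 in CORT lambs, with all 9 CORT lambs above the Control mean. Its difference was 0.23 (SE 0.08, 95% interval 0.07 to 0.39, exact permutation p = 0.00577), or 1.17-fold. The FLT1 probe A_70_P026322 was 0.16 higher (SE 0.07, exact permutation p = 0.0205), and A_70_P026321, which is the same sequence moved by 1 base and shares 59 bases with it, differed by 0.01 (SE 0.06). The latter was well above background in 1 Control and 1 CORT lamb, and the former in 4 Control and 7 CORT lambs. The 2 remaining FLT1 probes gave 0.12 and 0.04.

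KDR differed by 0.33 (SE 0.16, 95% interval -0.0043 to 0.672, limma p = 0.0527, exact permutation p = 0.0675), and its 4 probes were all positive, from 0.10 to 0.33. Control lamb 1 was the lowest at 8.23, and without it the difference was 0.20. PECAM1, an adhesion molecule of endothelial junctions, was 0.35 higher (SE 0.16). EPAS1, a hypoxia-inducible factor of endothelial cells, was 0.16 higher with its brightest probe (SE 0.06, exact permutation p = 0.00979). That probe lost its unadjusted call when Control lamb 1 or Control lamb 2 was left out. With the scanner's corrected intensity it was 0.255 higher and not called. An EPAS1 probe sharing 59 bases with it was at 0.07 (SE 0.07). The remaining EPAS1 probes were at 0.12 (SE 0.08) and 0.14 (SE 0.09), and only the brightest was called. MMP14, a membrane-bound matrix protease, was at -0.01 (SE 0.09) and changed sign under 3 of 6 other scalings. The study reported MMP14 as modestly raised, with FLT1 and KDR. Here its 4 probes lay between -0.01 and 0.03, so that rise was not seen. The ligand VEGFA was at 0.24 (SE 0.17), with 0.68 on slide 1 and -0.13 on slide 2.

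Of 11 endothelial genes tested, 2 were called, FLT1 and PECAM1, both higher, and the median was 0.04. Of 13 Notch and VEGF pathway genes 2 were called, both higher, with a median of 0.01. Over all tested probes 1.64% were higher, and with so few genes 1 call moves a list's share widely. FLT1 was also named by the study on these lambs. NOTCH1, DLL4, TEK, ANGPT1 and ANGPT2 were all within 0.08 of 0. The summed level of the 4 endothelial markers was 11.8 to 12.8 in Control and 12.5 to 13.4 in CORT lambs, a difference of 0.34 between the means. Intensities were summed before taking the log, so the sum mostly repeats PECAM1, the brightest marker. Control means were 12.27 for PECAM1, 9.043 for KDR, 7.135 for FLT1 and 6.927 for TEK. A change in the share of endothelial cells cannot be told apart from a change within them. The 13 matrix genes had 0 called, and the collagens COL1A1, COL1A2 and COL3A1 were at -0.05, -0.09 and 0.04.

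The heat shock gene HSP70.1 and the immediate early gene FOS were higher in CORT lambs. HSP70.1, an inducible chaperone of the HSP70 family, was between 9.76 and 10.86 in Control and between 10.11 and 11.28 in CORT lambs, and 8 of 9 CORT lambs lay above the Control mean. The difference was 0.58 (SE 0.19, exact permutation p = 0.0161), or 1.49-fold, at 0.41 on slide 1 and 0.72 on slide 2. A second probe sharing 58 bases gave 0.46. All 5 heat shock and chaperone genes tested were positive, under each of 6 other scalings too, with a median of 0.13. HSP70.1, described because of its small p, was the 1 called, beside 3.56% of all tested probes. DNAJA1 was at 0.23 (SE 0.16) and HSPA5 at 0.13 (SE 0.15). CRYAB was at 0.07 (SE 0.38), with 0.38 on slide 1 and -0.45 on slide 2, while the other genes of the list were positive on both slides.

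FOS, the rapidly induced transcription factor, was 0.52 higher (SE 0.20, exact permutation p = 0.0253) with all 4 of its probes positive. Control lambs lay between 8.33 and 8.62 apart from Control lamb 4 at 9.199. CORT lambs began at 8.52, and the highest, CORT lamb 8, was at 10.101. Of 6 immediate early genes FOS was the 1 called, beside 3.56% of all tested probes, and FOS is described because of its small p. MYC was at 0.34 (SE 0.19) and JUND at 0.31 (SE 0.17), while EGR1 was at -0.05 with its bright probe. A dim EGR1 probe was well above background in 0 of 7 Control and 3 of 9 CORT lambs, and no size is given for it.

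A further set of named probes was higher without forming a list. BMAL1, a transcription factor of the circadian clock, was 0.40 higher (SE 0.16, exact permutation p = 0.0342), at 0.32 and 0.48 on slides 1 and 2. The neuropeptide galanin (GAL) was 0.28 higher (SE 0.10), with 2 of 7 Control and 7 of 9 CORT lambs well above background. Its size depended on the background correction, at 0.997 with the scanner's corrected intensity and 0.537 in the deposited values, and it was 0.11 on slide 1 and 0.38 on slide 2. LEF1, a transcription factor of the Wnt pathway, was among the called probes but was well above background in 0 of 7 Control and 3 of 9 CORT lambs. Most of its values were thus not well above background in either group, and no size is given for it. PKG1 beta, a cyclic GMP-dependent kinase isoform, was 0.33 higher (SE 0.13), but with 0.64 on slide 1 and -0.06 on slide 2, and was no longer called without Control lamb 1 or Control lamb 3. RBBP5, part of histone methyltransferase complexes, was 0.12 higher (SE 0.05, exact permutation p = 0.00664). It was past the unadjusted level in 16 of 34 alternatives, and not when Control lamb 1, 3 or 6 or CORT lamb 3, 4, 5, 7 or 8 was left out. The brightest probe of the elongation factor EEF1A1 was at 0.04, or -0.04 when arrays were scaled to their 75th percentile, and 2 dimmer probes were at 0.31 and 0.37.

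**Figure D4:**
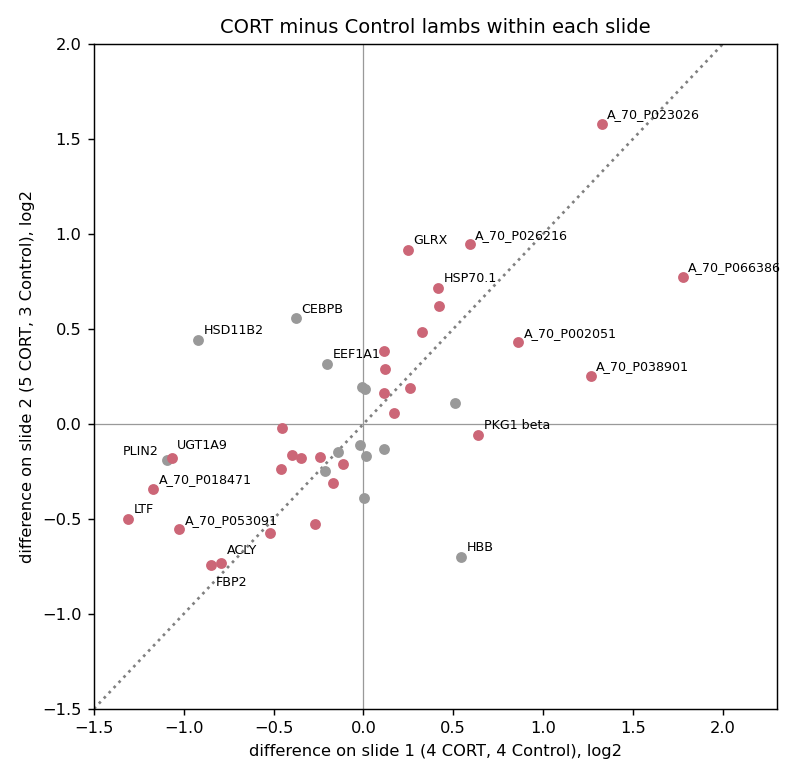
Difference between CORT and Control lambs within slide 1 (x axis, 4 against 4) and within slide 2 (y axis, 5 against 3), both log2, for the 44 genes and unnamed probes, with the dotted line where both are equal and colour for an unadjusted p under 0.05 over both slides. LTF and UGT1A9 were larger in size on slide 1, SOD1 and ACLY lay near the line, and HSD11B2 changed sign between slides.

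The glucocorticoid list holds 19 symbols, and only 5 of its genes had a named, tested probe. Targets such as FKBP5, TSC22D3, PER1 and SGK1 could not be read. The genes that could be read were not called, beside 3.56% of all tested probes that were. The glucocorticoid receptor NR3C1 was at 10.5 ± 0.15 (SD, n = 7) in Control and 10.5 ± 0.26 (SD, n = 9) in CORT lambs, a difference of -0.08 (SE 0.11, 95% interval -0.31 to 0.14). The mineralocorticoid receptor NR3C2 differed by -0.20 (SE 0.15, 95% interval -0.52 to 0.13). HSD11B1, which regenerates active cortisol, differed by -0.25 (SE 0.18) with its first probe and -0.17 with its second. HSD11B2, which inactivates cortisol, differed by -0.25 (SE 0.24), with -0.92 on slide 1 and 0.44 on slide 2, each past limma's unadjusted level within the slide. CEBPB, a glucocorticoid-responsive adipocyte regulator, was likewise split, at -0.38 and 0.56. Whether the slides differed was not tested.

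Adipocyte identity genes were well above background in every lamb of both groups. PPARG, the master regulator of adipocytes, measured 14.1 ± 0.41 (SD, n = 7) in Control and 14.4 ± 0.27 (SD, n = 9) in CORT lambs, and FABP4 differed by 0.02. Of 10 adipocyte genes 1 was called, beside 3.56% of all tested probes. The called gene was leptin (LEP), the satiety hormone of fat, at 0.33 (SE 0.15) with its brightest probe. That probe was at 0.56 on slide 1 and 0.07 on slide 2. The 2 other LEP probes were at 0.04 and 0.06. Lipoprotein lipase (LPL) was at -0.33 (SE 0.20). Of 4 brown adipocyte genes 0 were called, with uncoupling protein 1 (UCP1) at -0.20 (SE 0.54) and a spread between lambs from 8.52 to 12.7. Carnitine shuttle genes CPT1A, CPT1B and SLC25A20 were at -0.24, -0.18 and -0.27, with 0 called.

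**Figure D5:**
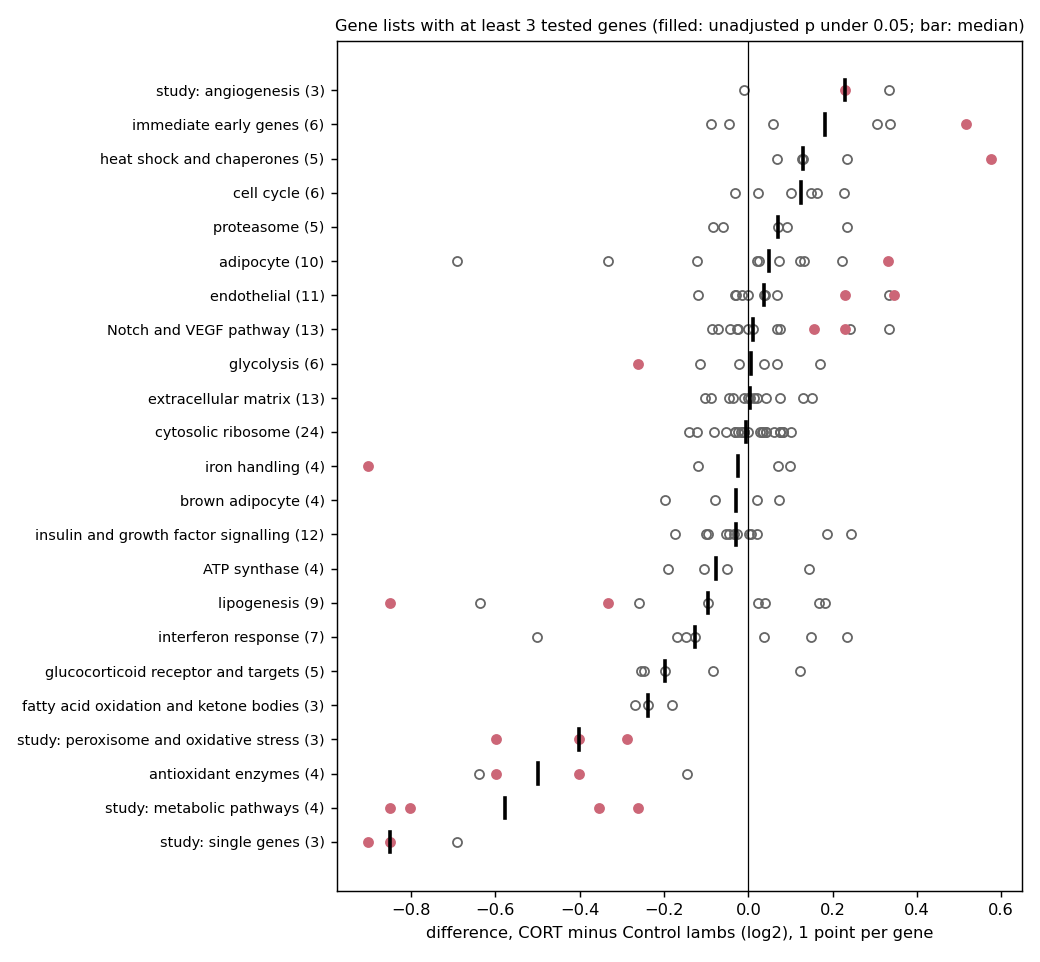
Differences between CORT and Control lambs (log2, x axis) of the genes in each list with at least 3 tested genes, with the number of genes in brackets, filled points for an unadjusted p under 0.05 and bars for the median. The 4 lists named study hold genes the study chose on these lambs. Among the other lists shown, the antioxidant enzymes have the lowest median, at -0.50. It lies between SOD1 and SOD2, which the study also chose, and is not independent of that choice.

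Lists of broad cellular machinery had 0 called genes, beside 3.56% of all tested probes, which does not show that these lists were alike in the groups. The 24 genes of the cytosolic ribosome lay between -0.14 and 0.10 with a median of -0.00473. The insulin and growth factor list had 12 genes between -0.17 and 0.24, and the proteasome list 5 genes between -0.08 and 0.23. The 7 interferon response genes ranged from -0.50 to 0.23 with a median of -0.13, and ISG15, at -0.50, had an SE of 0.62. Both cholesterol synthesis genes were negative, with a median of -0.18. Of 6 cell cycle genes 5 were positive, with a median of 0.12. Markers of other cell types also had 0 called, apart from LTF, LEP, FLT1 and PECAM1, which are described above. T cell markers were summed at 8.85 to 9.71 in Control and 9.00 to 9.71 in CORT lambs, myeloid markers at 11.3 to 11.7 and 11.1 to 12.7, and fibroblast markers at 16.4 to 16.7 and 15.5 to 16.8. In each of these sums the brightest genes weigh most.

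The largest called differences on the higher side belonged to probes without a gene name, while on the lower side LTF and ACLY were ahead of every unnamed probe. The first 30 bases of 4 of them, those with the smallest p on each side, are given so that they can be identified.
A_70_P048347: agctgctggggctcacagctcagacccctg
A_70_P023026: tactgcacacccttttgggggagaaggctt
A_70_P009606: gaattatgtgactaagagacaatctttgaa
A_70_P061526: tatgacttgattgctgagtatgctttatat

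A_70_P023026 combined a large difference with a small p. Control lambs measured 6.62 at the lowest, 7.42 at the median and 9.45 at the highest, and CORT lambs 8.13, 9.12 and 9.80. All 9 CORT lambs lay above the Control mean, and 3 of 9 above all Control lambs. Control lambs 2, 3 and 7, at 8.318, 8.197 and 9.45, lay above the lowest CORT lamb. The probe was well above background in 6 of 7 Control and 9 of 9 CORT lambs. The difference was 1.47 (SE 0.36, 95% interval 0.72 to 2.23, exact permutation p = 0.00323), or 2.77-fold, at 1.33 and 1.58 on slides 1 and 2. With the scanner's corrected intensity in place of normexp it was 2.53. A_70_P048347 was 0.56 higher (SE 0.13, exact permutation p = 0.00227) and again had all 9 CORT lambs above the Control mean. A_70_P009606 was 0.42 lower (SE 0.10, exact permutation p = 0.00175), at -0.40 on both slides. A_70_P061526 was 0.47 lower (SE 0.12, exact permutation p = 0.00332). For each of the last pair, 9 of 9 CORT lambs were below the mean of the Controls.

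Among the other large differences, A_70_P066386 was 1.40 higher (SE 0.48), at 1.78 on slide 1 and 0.77 on slide 2, with all 9 CORT lambs above the Control mean. Control lambs 2 and 3 were the lowest of all, at 7.12 and 7.08. A_70_P002051 was 0.80 higher (SE 0.36), a call that was lost without Control lamb 1, 3 or 4 or CORT lamb 5, 6, 7, 8 or 9, and A_70_P038901 0.77 higher (SE 0.30), the latter with 1.26 on slide 1 and 0.25 on slide 2. A_70_P026216 was 0.91 higher (SE 0.43) without CORT lamb 2, whose spot was marked as an outlier, and was past the unadjusted level in 14 of 34 alternatives. A_70_P053091 was 0.84 lower (SE 0.29) and A_70_P018471 0.78 lower (SE 0.29). Those 2 probes had their lowest CORT value in CORT lamb 9 and their lowest Control value in Control lamb 6.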

How the data were processed

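Total RNA from the epicardial fat of each lamb was labelled with Cy3 and hybridised to a 1-colour sheep array, per the labels. The deposited scanner files hold mean foreground and median local background intensity per spot, extracted by the authors with Feature Extraction 10.1.1.1, per the file headers. The authors also deposited a matrix of log2 values, background corrected and quantile normalized in limma, used here only as an alternative for the lambs. Every column of values was mapped to a sample through its label.

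Background was corrected here with normexp (offset 50, limma 3.58.1, R 4.3.3), and all 30 arrays were quantile normalized on the log2 scale, since their number and signal over background limit the precision. Outlier spots were dropped and repeated spots averaged. Of 15008 probes, 12837 were tested, those whose signal exceeded by at least 10%, on 6 or more arrays, the 95th percentile among 77 negative controls. The difference between 9 CORT and 7 Control lambs was fitted with lmFit and eBayes on the 16 lambs, two-sided, with Benjamini-Hochberg adjustment over all tested probes, and each described probe also received an exact two-sided permutation test of the difference of means (scipy 1.17.1, 11440 splits, smallest possible p 8.74e-05). The scripts were tested on simulated data. The methods call genes at an unadjusted p of 0.05, and both levels were counted.

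Probes were named from the array's own columns and the ARS-UI_Ramb_v3.0 gene table, for 1682 of 15008 probes. Naming by translated sequence was planned and not used here, and without a genome of the array's design no coordinates are given. The brightest probe over 30 arrays stands for a gene. Described were (a) genes the study named that had a named, tested probe and (b) the 15 named probes with the smallest p on each side. Also described were (c) the 5 largest called differences on each side and (d) glucocorticoid and iron genes. The 4 unnamed probes with the smallest p, and the leading genes of other lists, were added after their values were seen. The members and lists were chosen with earlier results of these data known. Replicate numbers were not taken to pair lambs, since the labels state no pairing. Deviations of same-numbered lambs correlated between -0.0633 and 0.413, which cannot decide whether the numbers pair them. The alternatives were other normalizations, filters, slide as a block, single slides, array weights, all 30 arrays, the replicate number as a block and leaving out each lamb. The myoglobin covariate and the removal of the arrays standing apart were chosen after seeing the data.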

Additional observations from a re-analysis of the deposited data

Results flagged for a closer look

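Of 88 groups of lambs checked over the described genes and probes, 7 held a lamb far from the others of its group by Dixon's criterion, which chance meets in about 1 of 20 groups. ACLY was 11.709 in CORT lamb 4, above the other CORT lambs, and without that lamb its difference was -1.06. FOS was 9.1992 in Control lamb 4, above the other Control lambs. GAL was 6.9441 in Control lamb 7 and GLRX was 9.7846 in CORT lamb 9, each the highest of its group. Control lamb 6, the array that stood apart on the first component, was the lowest of its group for the unnamed probes A_70_P018471, at 9.6142, and A_70_P053091, at 12.027, and for TF, at 11.003.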

How the results depend on the processing

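No probe passed the adjusted level in any of the 34 alternatives run, with smallest adjusted p-values from 0.163 to 1.0. LTF, ALDH1A1 and A_70_P023026 kept their sign and their unadjusted call in all 34. Differences in counts below are at the unadjusted level, and the causes were not tested. Higher and lower calls numbered 424 and 590 within slide 1, 406 and 468 within slide 2, 393 and 378 with array weights, and 413 and 444 without Control lamb 6 and CORT lamb 1. Leaving out single lambs gave 103 to 313 higher and 175 to 391 lower calls. Scaling to the 75th percentile gave 142 and 296, against 211 and 246, and the replicate block 295 and 206. The numbers were not taken to pair the lambs, and 2 of 7 best matched their own number. Of 30 described genes and probes called, 18 counted within slide 1 and 15 within slide 2.

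Signs turned for genes that were not called, and for PKG1 beta (-0.0592 within slide 2). Within slide 1 CEBPB was at -0.38, EEF1A1 at -0.20, EGR1 at 0.0153, HBB at 0.54, MMP14 at 0.11, NR3C2 at 0.00406 and TF at -0.006. Within slide 2 HSD11B2 was at 0.44. With the 75th percentile EEF1A1 was at -0.0418 and MMP14 at 0.0566, and MMP14 was at 0.0624 with the scanner's corrected intensity, 0.0371 in the deposited values and 0.0392 with the replicate block, where NR3C1 was at 0.00248. EGR1 was at 0.019 with array weights, and TF at -0.0529 without the arrays that stood apart. Leaving out single lambs moved EEF1A1 from -0.00225 to 0.11, EGR1 from -0.0935 to 0.0126, HBB from -0.57 to 0.29, MMP14 from -0.0668 to 0.0337 and TF from -0.0638 to 0.12. Precision is limited by 16 lambs on 2 slides, by twins whom the labels do not identify and by dim probes.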

Other observations

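Several groups of probes read through the array's product descriptions, rather than a gene symbol, showed no called member, beside 3.56% of all tested probes. Immunoglobulin descriptions covered 32 tested probes with a median difference of 0.0357, T-cell receptor descriptions 21 with a median of -0.00315, keratins 14 with a median of -0.025, and interleukins or chemokines 29 with a median of -0.0153. The 26 probes described as MHC molecules had a median of 0.188 and ranged from -0.81 to 0.43, with 0 called. Probes described only as unknown numbered 213, of which 4 were higher and 4 lower (3.76%).

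The interferon-response gene ISG15 spread from 8.58 to 13.7 among CORT lambs and from 9.11 to 12.04 among Control lambs, for a difference of -0.50 (SE 0.62). UCP1 spread from 9.34 to 11.9 in Control lambs. Cell cycle genes were positive in 5 of 6, with a median of 0.12 and 0 called, and PCNA, the sliding clamp of DNA replication, was at 0.23.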
